A study of Mus musculus with 8 samples.

Results

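Type I interferon response genes are genes whose transcription rises when a cell senses interferon alpha or beta. A list of 39 such genes was taken by gene symbol and matched through Entrez identifiers to a table of 11723 genes. The rule holds no value, but this list and those below were chosen with earlier results of these data known. Rows were found for 33 of the 39, and all 33 passed the filter on low values. Mx1, Mx2, Oas1g, Oasl1, Oasl2 and Ifi44 are not analysed here.

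The samples were CD8 T cells, the killer lineage of T lymphocytes, which were flow-sorted out of peripheral lymph nodes. The mice were of the inbred strain BALB/c and 12 days old. The control group was labelled WT (wild type) and the other IL-2-KO, for mice that lack interleukin-2, a growth factor of T cells that also maintains regulatory T cells. Each group had 4 libraries of total RNA, and no treatment is given in the labels. WT replicates 1 to 4 came from 115, 28.7, 1.3 and 1.3 M cells (M, 1e6) of 5, 5, 3 and 2 pooled mice, and IL-2-KO replicates 1 to 4 from 26.7, 42.6, 1.1 and 0.4 M cells with no pooling stated. The design text also allows heterozygous controls and spleen as a source, which the sample labels do not mention. The labels name no promoter or cell type for the knockout.

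Libraries held 11.87 to 18.4 M recovered counts over the listed genes, so 1 count per M (CPM) rested on 11.87 to 18.6 counts. All levels below are TMM-scaled CPM, which are not divided by gene length, so they compare libraries and not genes. The summed level of 10 CD8 T cell markers was 7559 to 8364 in WT and 6568 to 7603 in IL-2-KO, with Cd8a itself between 1479.5 and 1979 in the 8 libraries. Of these 10, 0 rose, 1 fell (10%) and 9 did not pass, while 11.1% of all genes tested rose and 8.03% fell. Thy1 fell from a mean of 961 in WT to 679 in IL-2-KO with no overlap (0.706-fold, limma adjusted p = 0.00117). WT replicate 2 and IL-2-KO replicate 3 stood apart by transcripts of other cell types: Lyz2, a lysozyme of myeloid cells, was at 40.0 and 296 in these libraries and at 0.230 to 2.85 in the other 6. The targeted gene, Il2, was at 5.72, 5.65, 6.25 and 5.91 in WT and at 5.13, 7.32, 8.42 and 4.25 in IL-2-KO (exact two-sided permutation p = 0.857 over 70 assignments). Its 1 value per gene does not show whether the reads fell in the deleted part, so Il2 did not check the genotype labels.

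As background, type I interferons bind the receptor pair Ifnar1 and Ifnar2, whose kinases Jak1 and Tyk2 phosphorylate factors of the STAT family. Stat2 and Irf9 are subunits of ISGF3, the complex that then binds a DNA motif named the interferon-stimulated response element (ISRE). The genes it drives encode proteins that detect or destroy viral RNA, block viral replication or entry, and amplify or brake the signal itself. Many of them also answer to interferon gamma, which acts through a related motif named GAS.

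The interferon genes were higher in IL-2-KO CD8 T cells as a group. Of the 33 tested, 29 rose and 0 fell, and 4 did not pass the test: Irf9, Ifi203, Ifi204 and Sp100. Over all 11530 genes tested, 11.1% rose (1285 genes) and 8.03% fell (926 genes). At an unadjusted p under 0.05, limma placed 30 of the 33 higher and 0 lower. The median change of the 33 was 1.05 on the log2 scale, or 2.07-fold, beside a median of -0.01 over all genes tested. Folds of those that rose ran from 1.27 (Ifi35) to 6.32 (Ifit3), with limma adjusted p from 9.54e-05 (Parp14) to 0.0472 (Dtx3l), and 18 of the 29 rose at least 2-fold. For 26 genes every IL-2-KO library was above every WT library, an arrangement found for 12.9% of all genes tested (1490 genes). Rsad2 passed the filter through its IL-2-KO libraries alone. Without it 28 of 32 rose.

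In bulk RNA, more cells that express a gene and more RNA of that gene per cell cannot be told apart. No label says that the libraries of a group came from separate litters or days, and p-values measure the spread between the samples as deposited, which the design text calls biological replicates. The number of sorted cells differed between libraries, with replicates 1 and 2 of both groups above 2 M cells and replicates 3 and 4 below. Within the larger libraries the median change of the 33 genes was 1.03 and 18 rose, and within the smaller it was 1.13 and 6 rose, with 2 libraries a group in each. At an unadjusted p under 0.05 these fits placed 28 and 27 of the 33 higher.

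**Figure D1:**
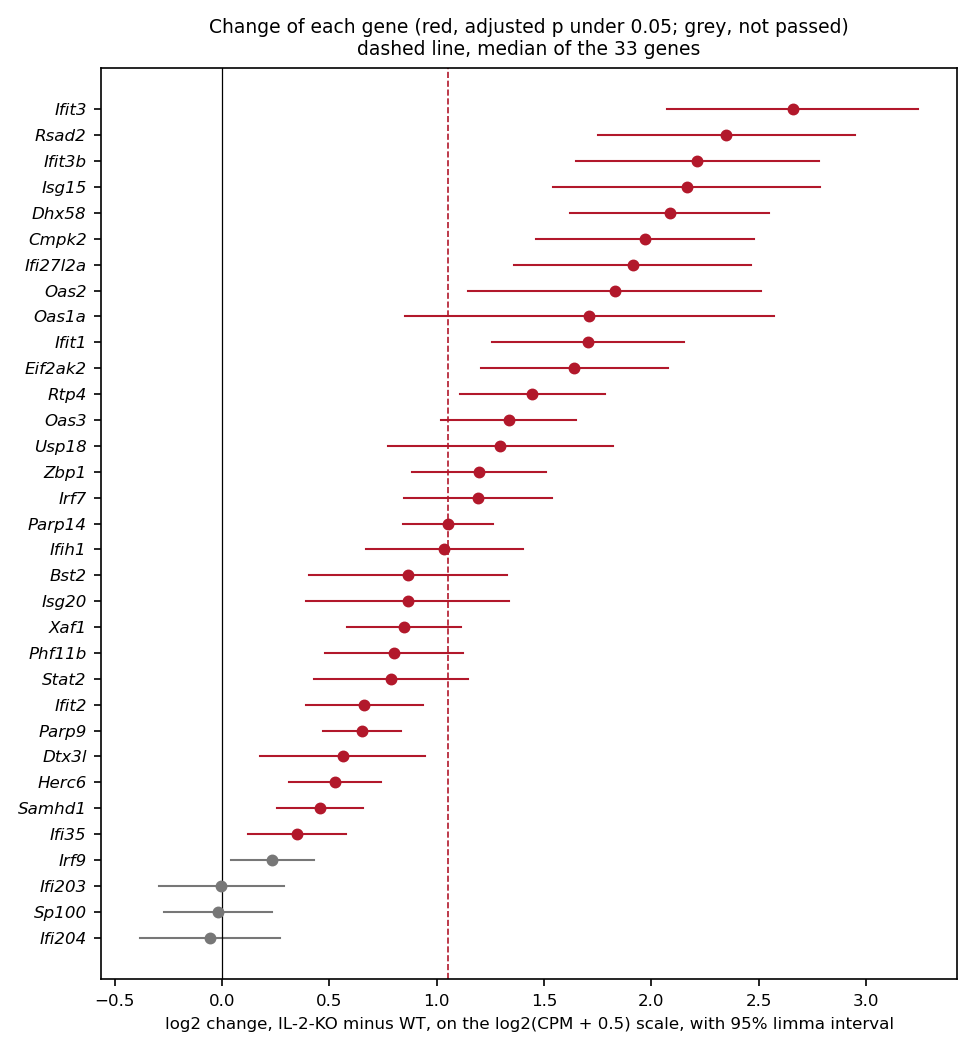
Change of each of the 33 genes, IL-2-KO minus WT, on the log2(CPM + 0.5) scale, with the 95% limma interval as a bar. Red points passed an adjusted p of 0.05 and grey points did not, and the dashed line is the median of 1.05. Ifit3 stood highest at 2.66, and Ifi203, Ifi204 and Sp100 lay at 0 within their intervals.

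The DNA before these genes' start sites was searched for the core of the ISRE, because the motif names the complex they respond to. The letters GAAA, any 2 bases and GAAA again were searched on both strands (on the other strand they read TTTC, any 2 bases and TTTC) in RefSeq windows of GRCm38.p6 that run from 250 bases before to 50 bases after each start. Neighbouring matches may overlap and share bases. A promoter entry was found for 24 of the 33 genes, and 13 of the 24 (54.2%) held a match, beside 3.99% of the 27025 genes in the promoter table, 3.77% of the 9199 tested genes with an entry, and 7.46% of the 1005 that rose. The GAS core, TTCNNNGAA, reads the same on both strands and was in 7 of the 24 (29.2%), beside 9.55% of the promoter table and 8.34% of the tested genes. Matches are letters, not measured binding.

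The windows of 50 bases below carry ISRE matches of 8 genes that rose at least 1.73-fold, among them Ifit3, which had the largest fold of the 33 genes at the pseudocount of 0.5. They are written 5′ to 3′ on the gene's strand, with the matched letters in capitals.
Isg15, chr4:156200855-156200904, minus strand: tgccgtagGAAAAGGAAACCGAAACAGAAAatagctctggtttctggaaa
Ifit1, chr19:34640784-34640833, plus strand: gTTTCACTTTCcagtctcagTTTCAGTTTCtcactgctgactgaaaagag
Ifit3, chr19:34583387-34583436, plus strand: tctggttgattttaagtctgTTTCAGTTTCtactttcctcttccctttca
Ifit3b, chr19:34607783-34607832, plus strand: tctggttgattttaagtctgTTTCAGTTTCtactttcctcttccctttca
Rsad2, chr12:26456543-26456592, minus strand: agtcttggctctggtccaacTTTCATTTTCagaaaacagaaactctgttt
Oas3, chr5:120777705-120777754, minus strand: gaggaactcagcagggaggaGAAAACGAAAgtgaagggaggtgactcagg
Stat2, chr10:128270256-128270305, plus strand: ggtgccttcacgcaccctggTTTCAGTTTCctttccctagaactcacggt
Bst2, chr8:71537567-71537616, minus strand: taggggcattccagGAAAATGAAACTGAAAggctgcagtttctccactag

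Isg15 held 3 overlapping matches in a row, the nearest at positions -66 to -57 from its start. Ifit3 and Ifit3b printed the same 50 letters, with the match at -122 to -113 from the start of Ifit3 and at -154 to -145 from that of Ifit3b. Both of these windows lie inside the widest RefSeq span of their gene, upstream of the start used. Stat2, a subunit of ISGF3, carried its match at -222 to -213 from its own start. For Stat2, Bst2, Ifit3 and Ifit3b the bases after the start used were not found in a GENCODE transcript of the gene. Their positions thus rest on the RefSeq start alone. A match was not restricted to genes that rose: of the 3 genes with an entry that did not pass, Ifi203 had one, in 1 of its 2 windows, and Irf9 and Sp100 had none in theirs. Among genes that rose, 12 of 21 had a match, and Irf7, Cmpk2, Samhd1 and Ifit2 were among the 9 without one in this window.

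Among the IFIT proteins, Ifit1 binds viral RNA that lacks the caps of host messenger RNA and keeps it from being translated. The 4 IFIT genes lie on the plus strand of chromosome 19 (GRCm38) in the order Ifit2 (34550550 to 34576534), Ifit3 (34583119 to 34588982), Ifit3b (34607530 to 34613403) and Ifit1 (34640889 to 34650009). All 4 rose, by 1.58-fold to 6.32-fold.

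Ifit3 was at 4.82, 7.21, 3.83 and 4.64 in WT replicates 1 to 4 and at 28.2, 37.1, 55.6 and 23.5 in IL-2-KO replicates 1 to 4. The lowest IL-2-KO library was more than 3 times the highest WT library, and the change was 2.66 on the log2 scale (95% interval 2.08 to 3.24, 6.32-fold, limma adjusted p = 0.000148). Its near copy Ifit3b read 1.86, 2.65, 1.76 and 1.72 in WT against 8.31, 13.0, 17.2 and 7.69 in IL-2-KO. That gave 4.64-fold (adjusted p = 0.00032, limma), with the IL-2-KO libraries in the same order as for Ifit3. The longest open reading frames of the pair were identical at 1201 of 1212 bases (99.09%), and 51.2% of the 50-base stretches of Ifit3 were also in Ifit3b. Reads of such stretches may have been split between the genes, so their separate levels are uncertain.

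Ifit1 stood at 7.44, 5.23, 4.84 and 6.12 in WT and at 18.7, 24.6, 25.1 and 14.2 in IL-2-KO. The groups did not overlap, and the mean went from 5.91 ± 1.16 to 20.6 ± 5.22 (SD, n = 4 each, 3.26-fold, limma adjusted p = 0.000371). Its reading frame shared 53.04% of aligned positions with Ifit3 and 55.72% with Ifit2, and 7.13% of its 50-base stretches occurred in another gene. Ifit2 had the lowest fold of the 4 genes. Its WT libraries spanned 30.7 to 33.5 and its IL-2-KO libraries 40.8 to 63.1, without overlap (1.58-fold, limma adjusted p = 0.00459).

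Isg15 is a ubiquitin-like protein that is joined to other proteins in interferon-treated cells, Herc6 is the ligase that attaches it in mice, and Usp18 removes it and also brakes the interferon receptor. All 3 rose. Isg15 was at 7.75, 8.55, 6.85 and 7.51 in WT and at 47.1, 36.6, 53.2 and 18.3 in IL-2-KO. The WT libraries kept close to one another, while the IL-2-KO libraries differed 2.91-fold from highest to lowest, and replicate 4 was still above every WT library. The change was 2.16 on the log2 scale (95% interval 1.54 to 2.79, 4.48-fold, limma adjusted p = 0.000577).

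Usp18 read 11.0, 11.8, 7.77 and 10.1 in WT and 22.9, 24.5, 41.7 and 17.8 in IL-2-KO. Again no libraries overlapped (2.46-fold, limma adjusted p = 0.00406), and replicate 3 led while replicate 4 was lowest. Herc6 ran from 79.8 to 90.6 in WT and from 104 to 136 in IL-2-KO, a smaller change of 1.44-fold (limma adjusted p = 0.00447). Of its 50-base stretches 23.8% were also in the annotated gene Gm45193.

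Oligoadenylate synthetases make a short nucleotide messenger on meeting double-stranded RNA, which leads to the cutting of RNA in the cell. The 3 genes of this family with rows lie on the minus strand of chromosome 5, Oas2 and Oas3 with a gap of 3211 bases between them, and all 3 rose. Oas2 stood at 6.95, 7.16, 8.52 and 7.85 in WT and at 30.4, 28.8, 51.4 and 14.1 in IL-2-KO. Replicate 3 of IL-2-KO was 3.65 times replicate 4, yet the groups were apart (3.55-fold, limma adjusted p = 0.00265). Oas3 read 34.5, 25.5, 30.3 and 36.8 in WT against 68.4, 101, 80.5 and 74.4 in IL-2-KO. Here replicate 2, not 3, was the highest, and the IL-2-KO libraries lay closer together (2.52-fold, limma adjusted p = 0.000209).

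Oas1a was a low gene, at 0.554, 1.22, 0.259 and 1.15 in WT and at 2.08, 3.01, 7.82 and 2.96 in IL-2-KO. Its groups did not overlap, but replicate 3 stood far above the other IL-2-KO libraries (3.28-fold, 95% interval on the log2 scale 0.85 to 2.57, limma adjusted p = 0.0125). Its log2 change of 1.71 became 2.18 with a pseudocount of 0.1 and 1.02 with 2. The annotated Oas1g transcript, which had no row used here, shared 57.6% of the 50-base stretches of Oas1a, so the level of Oas1a is uncertain.

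Further antiviral enzymes rose as well, 5 of 5. Rsad2 (viperin) makes a nucleotide that stops viral RNA synthesis, and Cmpk2 is the mitochondrial nucleotide kinase encoded next to it. The 2 genes lie head to head on chromosome 12, Rsad2 at 26442743 to 26456452 on the minus strand and Cmpk2 at 26469117 to 26479837 on the plus strand. Rsad2 was at 0.240, 0, 0.230 and 0.121 in WT, which is 4, 0, 4 and 2 counts, and at 2.08, 3.25, 4.25 and 1.96 in IL-2-KO. WT was thus near the floor of 3 counts, 0.161 to 0.253 CPM by library, while each IL-2-KO library held 31 to 79 counts. The fold of 5.09 (95% interval on the log2 scale 1.75 to 2.95, limma adjusted p = 0.000313) is on the log2(CPM + 0.5) scale, which understates changes of low genes. With a pseudocount of 0.1 in place of 0.5 the log2 change of 2.35 became 3.67, and with 2 it became 1.16, so its rank among the genes rests on that choice. Cmpk2 read 3.35, 2.19, 2.13 and 1.99 in WT and 8.64, 11.9, 15.6 and 8.22 in IL-2-KO. Its 4 IL-2-KO libraries ranked as those of Rsad2 did, with replicate 3 highest and replicate 4 lowest (3.92-fold, limma adjusted p = 0.000338).

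Eif2ak2 (PKR) is a kinase that halts translation on binding double-stranded RNA. It stood at 7.15, 8.09, 6.69 and 6.45 in WT and at 16.1, 22.8, 33.6 and 23.0 in IL-2-KO, with no overlap (3.12-fold, limma adjusted p = 0.000382). Isg20, an exonuclease that degrades viral RNA, ranged from 8.23 to 11.9 in WT and from 12.4 to 25.5 in IL-2-KO (1.82-fold, limma adjusted p = 0.0191). Without WT replicate 3 its adjusted p was 0.066, and without WT replicate 4 it was 0.0574. Samhd1, which depletes the nucleotides needed for reverse transcription, was already at 483 to 536 in WT and reached 624 to 804 in IL-2-KO (1.37-fold, limma adjusted p = 0.00637).

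Cytosolic sensors of nucleic acid were the next group, and 3 of 3 rose. Ifih1 (MDA5) detects long double-stranded RNA, Dhx58 (LGP2) is its helper helicase, and Zbp1 binds Z-form nucleic acid and can start necroptosis. Dhx58 was at 5.99, 5.14, 6.22 and 6.33 in WT and at 27.4, 25.3, 40.4 and 18.1 in IL-2-KO. All 4 IL-2-KO libraries were at least 18.1 and no WT library exceeded 6.33 (4.25-fold, limma adjusted p = 0.000153). Ifih1 read 24.4, 21.6, 22.4 and 24.4 in WT and 37.2, 54.8, 65.0 and 39.9 in IL-2-KO, also without overlap (2.05-fold, limma adjusted p = 0.00192). Zbp1 stood at 160.2, 133, 131 and 151 in WT and at 374, 332, 387 and 243 in IL-2-KO. Replicate 4 was the lowest of the IL-2-KO libraries and still above every WT library (2.29-fold, limma adjusted p = 0.000354).

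Among the transcription factors, Irf7 amplifies the response by driving interferon alpha genes, and Stat2 and Irf9 are subunits of ISGF3. Irf7 was at 57.6, 52.7, 48.4 and 53.7 in WT and at 129, 113, 165 and 90.9 in IL-2-KO. The groups were apart, and the mean went from 53.1 ± 3.80 to 124 ± 31.4 (SD, n = 4 each, 2.28-fold, limma adjusted p = 0.000608). Stat2 ran from 65.0 to 75.5 in WT and from 90.2 to 159 in IL-2-KO (1.73-fold, limma adjusted p = 0.0076). Irf9 read 127, 122, 115 and 122 in WT and 153, 139, 159 and 123 in IL-2-KO. Replicate 4 of IL-2-KO lay within the WT range, and Irf9 did not pass (log2 change 0.23, 95% interval 0.04 to 0.43, limma adjusted p = 0.089). Without IL-2-KO replicate 4 it passed, at 0.31 on the log2 scale with an adjusted p of 0.0206.

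**Figure D2:**
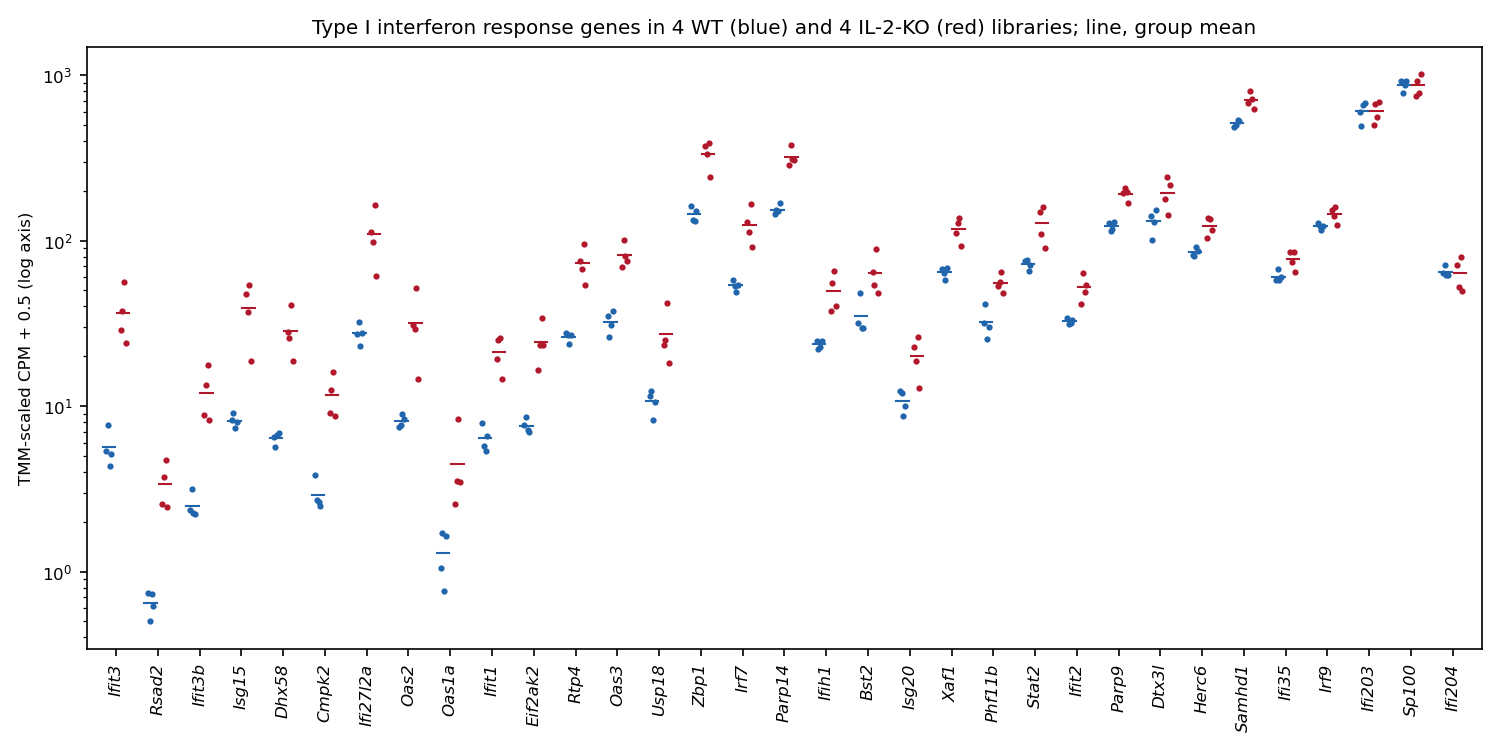
Level of each gene in every library, as TMM-scaled CPM plus 0.5 on a log axis, with WT points in blue, IL-2-KO points in red and a line at each group mean. Rsad2 was at 0 to 0.240 in WT, and Sp100 at 751 to 1009.6 over the 8 libraries. The colours separate for 26 genes and overlap for 7.

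Parp9 and Dtx3l form a complex of an ADP-ribosyltransferase-like protein with a ubiquitin ligase, and Parp14 is an ADP-ribosyltransferase; the 3 genes lie within the stretch of chromosome 16 from 35831892 to 35972621. All 3 rose. Parp14 was at 144, 153, 149 and 167 in WT and at 285, 379, 311 and 307 in IL-2-KO. The small spread in both groups gave it the lowest adjusted p of the 33 genes at a moderate fold (2.07-fold, limma adjusted p = 9.54e-05). Parp9 spanned 113 to 129 in WT and 169 to 209 in IL-2-KO (1.57-fold, limma adjusted p = 0.000503). Dtx3l spanned 100.3 to 153 in WT and 141 to 242 in IL-2-KO, so the groups overlapped (1.48-fold, limma adjusted p = 0.0472). Leaving out any library other than IL-2-KO replicate 3 ended its call, with adjusted p from 0.0544 to 0.112. Dtx3l and Parp9 are on opposite strands and overlap by 558 bases, and since no source used here gives the counting's strand setting, reads in the overlap cannot be assigned.

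Membrane and other effectors rose in 5 of 5 cases. Ifi27l2a, a small mitochondrial protein, was at 26.7, 31.5, 22.4 and 27.2 in WT and at 112, 97.7, 164 and 60.5 in IL-2-KO. Its lowest IL-2-KO library was above every WT library, and replicate 3 was 2.71 times replicate 4 (3.77-fold, limma adjusted p = 0.000594). Rtp4, a receptor chaperone, read 27.1, 26.4, 23.4 and 26.4 in WT and 74.9, 66.7, 95.1 and 53.6 in IL-2-KO, again in separate ranges (2.72-fold, limma adjusted p = 0.000196). Xaf1, a partner of apoptosis inhibitors, went from 57.6 to 68.1 in WT to 91.7 to 136 in IL-2-KO (1.80-fold, limma adjusted p = 0.000999).

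Bst2 (tetherin) holds budding virus at the cell surface. It was at 31.4, 48.0, 29.0 and 29.2 in WT and at 64.4, 53.6, 88.2 and 47.6 in IL-2-KO. WT replicate 2 lay above IL-2-KO replicate 4, so the groups overlapped by that pair (1.82-fold, limma adjusted p = 0.0167). The highest libraries of both groups for Bst2 are also those with other cells' transcripts, and without this pair Bst2 still passed. Leaving out WT replicate 1, 3 or 4 ended its call, with adjusted p of 0.0504, 0.0587 and 0.0549. Ifi35, a partner of the protein Nmi, ranged from 57.0 to 66.5 in WT and from 64.4 to 85.4 in IL-2-KO (1.27-fold, limma adjusted p = 0.0397). It lost its call without WT replicate 1, 3 or 4 or IL-2-KO replicate 1, 2 or 3, with adjusted p from 0.0644 to 0.116.

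The remaining genes encode nuclear proteins, and 3 of the 4 genes that did not pass are here. Ifi203 and Ifi204 belong to the HIN-200 family of DNA-binding proteins, whose genes cluster on chromosome 1. Ifi203 was at 596, 494, 656 and 673 in WT and at 499, 669.9, 554 and 691 in IL-2-KO. The ranges lay on top of each other (fold 0.997, 95% interval on the log2 scale -0.30 to 0.29, limma adjusted p = 0.985). Ifi204 read 63.0, 70.8, 61.8 and 61.2 in WT and 70.8, 52.0, 79.5 and 49.2 in IL-2-KO. IL-2-KO libraries fell on both sides of the WT libraries (log2 change -0.06, 95% interval -0.38 to 0.27, limma adjusted p = 0.827). Shared 50-base stretches made up 30.2% of Ifi204 and 16.5% of Ifi203, so their levels are uncertain.

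Sp100, a scaffold of nuclear bodies, was at 926, 775, 868 and 923 in WT and at 751, 925, 774 and 1009.6 in IL-2-KO. These ranges overlapped fully (log2 change -0.02, 95% interval -0.27 to 0.23, limma adjusted p = 0.919). Pml, which organises the same bodies and is outside the 33 genes, rose from a mean of 103 ± 4.49 to 162 ± 19.6 (1.56-fold, limma adjusted p = 0.000795). Phf11b, a PHD-finger protein, rose from 25.1 to 40.7 in WT to 47.9 to 63.7 in IL-2-KO (1.74-fold, limma adjusted p = 0.00405), and 47% of its 50-base stretches occurred in other genes. For Ifi203, Ifi204 and Sp100 the intervals exclude a 2-fold change in either direction.

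The level of these genes differed among the 4 IL-2-KO libraries. The median difference of the 33 genes from the WT mean was 1.07 in replicate 1, 1.21 in replicate 2, 1.38 in replicate 3 and 0.77 in replicate 4 on the log2 scale, or 2.10-, 2.31-, 2.60- and 1.71-fold. Replicate 3 was the highest of the 4 for 23 of the 33 genes (69.7%), beside 31.1% of all genes tested and 54.2% of the genes that rose. Replicate 4 was the lowest for 23 genes (69.7%), beside 30.6% of all genes and 37.8% of the genes that rose. Both held at once for 20 genes, among them Isg15, Oas2, Usp18, Ifit3 and Dhx58. Genes above all 4 WT libraries numbered 31, 30, 30 and 29 of 33 in replicates 1 to 4, beside 32.5%, 30.9%, 34.5% and 30.8% of all genes tested.

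**Figure D3:**
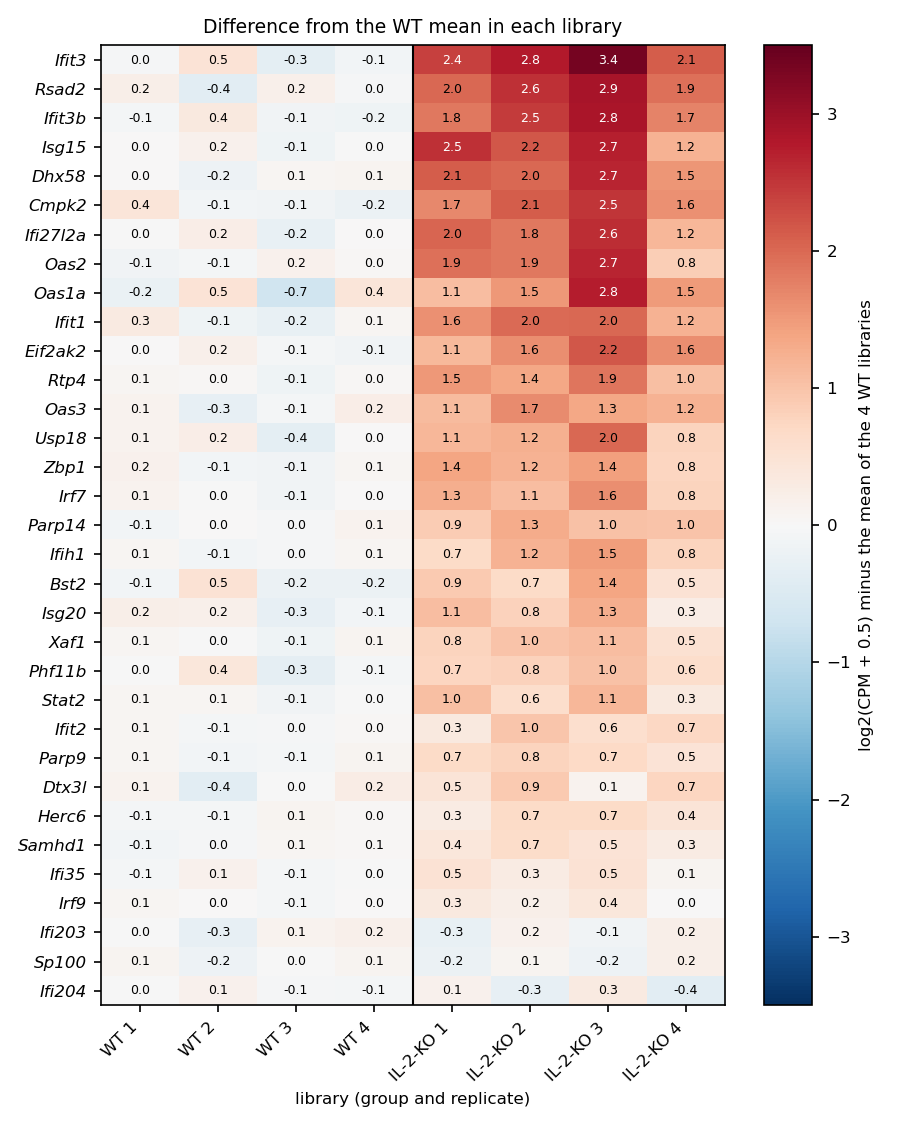
Difference of each gene in each library from the mean of the 4 WT libraries, on the log2(CPM + 0.5) scale, red for higher and blue for lower. The 4 columns at right are IL-2-KO. Replicate 3 is the deepest red for 23 genes and replicate 4 the palest for 23, and the rows of Ifi203, Ifi204 and Sp100 stay near white.

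Not every gene followed that order. Ifit2, Oas3, Herc6, Parp9, Parp14, Dtx3l and Samhd1 were highest in replicate 2. Their median change was 0.65 on the log2 scale, beside 1.44 for the 23 genes that were highest in replicate 3. Ifi35 was highest in replicate 1, and Ifi203 and Sp100 in replicate 4. Replicate 1 was the lowest library for 9 genes and replicate 2 for 0, and Dtx3l was lowest in replicate 3. The ratio of the highest to the lowest IL-2-KO library had a median of 1.76 over the 33 genes, beside 1.34 over all genes and 1.43 over the genes that rose. In WT the same ratio was 1.23 over the 33 genes and 1.23 over all genes. It reached 2 or more for 11 of the genes in IL-2-KO, with Oas1a (3.77), Oas2 (3.65), Isg15 (2.91) and Ifi27l2a (2.71) at the top, and for Oas1a (4.72) in WT.

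**Figure D4:**
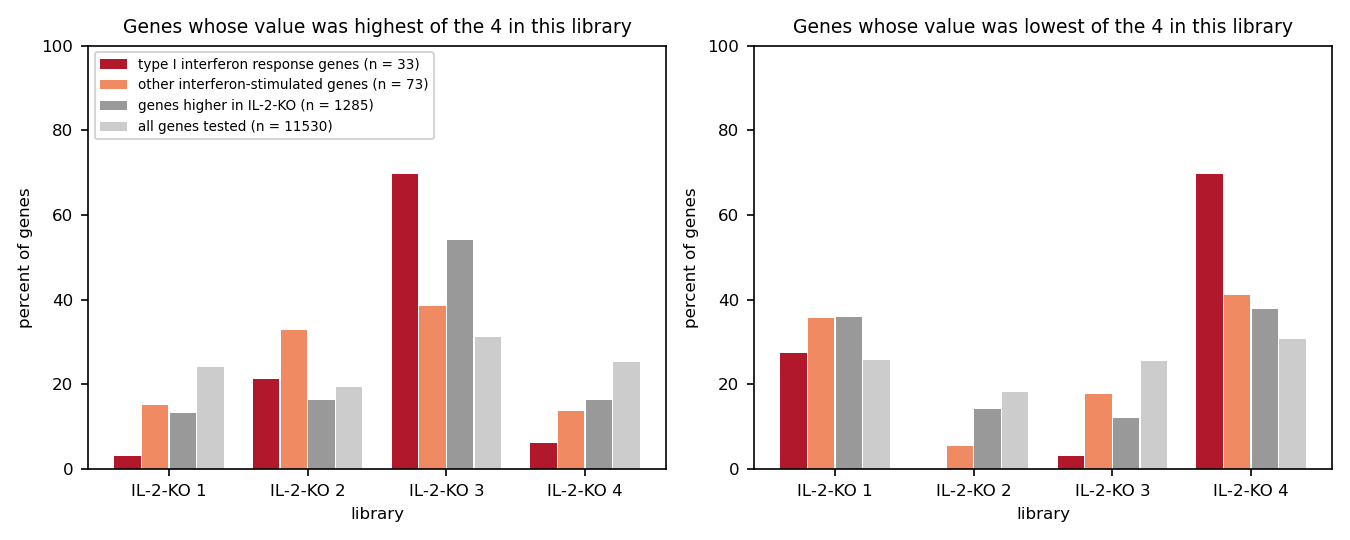
Percent of genes whose value was highest (one panel) or lowest (the other) in each IL-2-KO library, for the 33 interferon genes, all genes tested, the genes that rose and 73 other interferon-stimulated genes. Bars start at 0. The interferon genes reach 69.7% in replicate 3 for highest and 69.7% in replicate 4 for lowest.

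Cell numbers and other cells' transcripts also differed between these libraries, and their part in the spread was not tested. Replicates 3 and 4, at the top and the bottom of the order, came from the fewest cells, 1.1 and 0.4 M. The summed level of conventional dendritic cell markers (6 of 13 with a row) was 401 in replicate 3 and 33.8 to 44.3 in replicates 1, 2 and 4, beside 32.7 to 150.1 in WT. For monocyte and macrophage markers (7 of 18) the sum was 799 in replicate 3 and 262.4 to 350.9 in the others, beside 192.7 to 335.4 in WT. Of these markers Ccr2 was at 34.3 to 105.5 in IL-2-KO, highest in replicate 4, and at 4.87 to 16.0 in WT. Lyz2 and Cd68, of the same list, were instead at 1.34 and 9.22 in replicate 4 and at 296 and 26.8 in replicate 3. Ccr2 rose 5.60-fold (limma adjusted p = 0.0020), Ctss rose 1.48-fold (0.0355), and 5 did not pass. B cell markers (4 of 10) summed to 314.9 in replicate 3 and 16.3 to 28.5 in the others, beside 17.1 to 127.6 in WT. Most of the sum was Cd74 in replicate 3 (278.7) and in WT replicate 2 (101.5). Cd79a, Cd79b and Cr2 were at 12.8, 20.2 and 3.19 in replicate 3 and at 9.06, 14.5 and 2.61 in WT replicate 2. Plasmacytoid dendritic cells are specialised producers of type I interferon, and their markers (6 of 14, with no row for Siglech) did not move together. Runx2 rose 2.96-fold (limma adjusted p = 0.000341), Tlr7 2.19-fold (0.00301) and Lair1 1.96-fold (0.0126), Ccr9 fell by 1.10 on the log2 scale (0.00967), and Tcf4 and Pacsin1 did not pass. Their sum was 286.4 to 332 in IL-2-KO and 293.1 to 404.1 in WT with Ccr9, and 157.3 to 213.9 and 130.1 to 140.7 without it. Without replicate 3 the median change of the genes was 0.97, with 27 of 32 tested rising, and without both replicate 3 and WT replicate 2 it was 1.04, with 28 of 33 rising.

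Of the natural killer cell markers (6 of 10, several of which activated CD8 T cells share), 3 rose and 3 did not pass. They summed to 158.4 to 221 in WT and 401.3 to 668 in IL-2-KO. Eomes, a transcription factor also of CD8 T cells, made up 105 to 154 and 208 to 389.8 of these sums. Gzma was at 2.07 to 5.48 in WT and 99.6 to 184 in IL-2-KO (34.7-fold, limma adjusted p = 1.07e-05), and Klre1 rose 3.39-fold (0.0352). Of the 7 CD4 and regulatory T cell markers, Ikzf2 rose 1.88-fold (limma adjusted p = 0.000447) and Ctla4 6.75-fold (0.00447), and 5 did not pass. Foxp3, which defines regulatory T cells, was at 3.92 to 4.49 in WT and 2.69 to 3.56 in IL-2-KO (limma adjusted p = 0.075). The 7 summed to 95.2 to 186.4 in WT and 223.1 to 419.5 in IL-2-KO, and without Ikzf2 and Ctla4 to 10.6 to 68.4 and 9.87 to 72.5. Erythroid markers (4 of 7) summed to 14.7 to 94.9 in WT and 9.76 to 43.5 in IL-2-KO, and the 1 neutrophil marker with a row, of 11, was at 0.241 to 6.07 and 0.503 to 5.38, so these overlapped between the groups. The part of the natural killer and CD4 lists in the change of the interferon genes was not tested.

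WT replicate 2, which carried other cells' transcripts too, was 0.01 lower on the log2 scale than the other WT libraries in its median over the 33 genes. It was nonetheless the highest WT library for 12 of them, including Bst2, Ifit3 and Ifi27l2a. WT replicate 3 was the lowest for 16.

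The rest of the pathway was read from 5 lists. Of 20 interferon ligands 1 had a row, Ifng, which encodes interferon gamma, the type II interferon. It was at 2.63, 16.7, 5.58 and 6.33 in WT and at 15.5, 18.4, 39.3 and 18.0 in IL-2-KO. WT replicate 2 lay within the IL-2-KO range, and IL-2-KO replicate 3 stood above the others (3.16-fold, limma adjusted p = 0.0311). The type I interferon genes themselves are not analysed here.

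Of 13 tested genes for receptors and signalling, 7 rose, 1 fell and 5 did not pass, with a median of 0.28 on the log2 scale. These shares, 53.8% and 7.69%, stand beside 11.1% and 8.03% over all genes tested. Of the 2 chains of the type I receptor, Ifnar1 had a mean of 298 ± 6.05 in WT and 292 ± 11.7 in IL-2-KO and did not pass (limma adjusted p = 0.788), and Ifnar2 rose from 92.2 ± 7.40 to 111 ± 4.23 (1.20-fold, limma adjusted p = 0.0314). The kinases Tyk2 (limma adjusted p = 0.719) and Jak1 (0.968) did not pass. Stat3, which many cytokines use, rose 1.39-fold (limma adjusted p = 0.00323), and Irf2, a repressor at ISRE motifs, rose 1.28-fold (0.00914). Ifngr2, a chain of the interferon gamma receptor, was at 50.4 to 63.8 in WT and 16.5 to 30.9 in IL-2-KO. It fell by 1.13 on the log2 scale with no overlap (limma adjusted p = 0.00182).

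Of 21 tested genes for nucleic acid sensing, 3 rose, 2 fell and 16 did not pass (median 0.16). These shares, 14.3% and 9.52%, are near the 11.1% and 8.03% over all genes tested, so the list as a whole gave no result. Tlr7, an endosomal sensor of single-stranded RNA, rose from 3.68 to 5.23 in WT to 6.97 to 12.8 in IL-2-KO (2.19-fold, limma adjusted p = 0.00301). Its adaptor Myd88 rose 1.34-fold (limma adjusted p = 0.00377), and Nlrc5, an activator of MHC class I genes, 1.30-fold (0.00407). The helicase Dhx36 fell by 0.26 on the log2 scale (limma adjusted p = 0.0313), and the kinase Tbk1, which activates Irf3, fell by 0.21 (0.0478).

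Of 20 genes that brake interferon signalling, 9 rose (45%, beside 11.1% of all genes tested), 1 fell (5%, beside 8.03%) and 10 did not pass (median 0.31). Isg15, Usp18 and Samhd1 are in this list as well, and without them 6 of 17 rose. Adar, which edits double-stranded RNA and hides it from Ifih1, went from 225 ± 9.12 to 291 ± 7.52 (1.29-fold, limma adjusted p = 0.00244). Nlrx1, a mitochondrial regulator, rose 1.99-fold (limma adjusted p = 0.00305), and Socs3, an inhibitor of cytokine receptors, 2.57-fold (0.00354). Its highest levels, 85.4 in WT replicate 2 and 179 in IL-2-KO replicate 3, were in the libraries with other cells' transcripts.

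Among 73 further tested interferon-stimulated genes, 28 rose (38.4%), 0 fell and 45 did not pass, with a median of 0.31. Over all genes tested 11.1% rose and 8.03% fell. At an unadjusted p under 0.05 limma placed 36 higher and 1 lower. Every IL-2-KO library was above every WT library for 32 of the 73, an arrangement found for 12.9% of all genes tested. Gbp3 and Gbp2 encode GTPases that attack the membranes of intracellular pathogens, and rose 2.80-fold (limma adjusted p = 5.59e-05) and 2.27-fold (0.000269). Ifit1bl1, a relative of Ifit1, was at 3.20 to 6.73 in WT and 19.5 to 27.0 in IL-2-KO (4.09-fold, limma adjusted p = 0.000222). Ly6e, a surface protein, rose 2.03-fold (limma adjusted p = 8.53e-05). The 73 genes were highest in IL-2-KO replicate 3 in 38.4% of cases, beside 31.1% of all genes tested and 54.2% of the genes that rose. They were lowest in replicate 4 in 41.1%, beside 30.6% and 37.8%.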

How the data were processed

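RNA of 8 CD8 T cell libraries was sequenced from a stranded total RNA kit, per the labels' protocols. The values are a deposited signal: the authors' table holds 1 linear TMM-scaled count per M (1e6) for each gene and library, per the table's title and values. The submitters' processing notes name featureCounts, limma 3.34.9, R 3.4.3, GRCm38 and mm10. The aligner and the strand setting are not given in the sources used here. CPM had been planned for, but columns summed to 988292 to 1022953, so the unit was taken as a signal and the planned test kept. All values above 0 and under 20 CPM came to whole hundredths of a count (tolerance 0.05 hundredths). Whole counts made up 54.6% to 65.0% of these values (tolerance 0.001 count), a form that fractional counting gives, so recovered counts gave depth and no count test was run. Entrez identifiers were matched to RefSeq (11651 matched, 72 not).

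Values were taken as log2(CPM + 0.5), and a gene was kept where 4 or more of the 8 libraries reached 1. The IL-2-KO minus WT difference was fitted with limma 3.58.1 under R 4.3.3 (trended empirical Bayes, two-sided), with Benjamini-Hochberg adjustment over 11530 genes and a threshold of 0.05. Values in the text are per library, or mean ± SD over 4 libraries. The members and lists were chosen with earlier results of these data known, and no p-value was adjusted over a list alone. The genes described in full are those at least 2-fold higher and those that did not pass, with up to 4 of smallest adjusted p per other list, and Il2. A gene that this rule names is not reported here. Ifnar1, Ifnar2, Tyk2, Jak1, Tbk1, Pml, Cd8a and the single markers of other cell types were added, and the marker sums without Ccr9 or without Ikzf2 and Ctla4 chosen, after their values were seen. Promoters came from RefSeq (GRCm38.p6), and shared 50-base stretches and reading frames from GENCODE transcripts. No 2 libraries of a group were duplicates: their chi-square per gene was 5.07 or more. Same-numbered libraries deviated from their group means with correlations of 0.08, -0.53, -0.40 and 0.39, so the numbers do not pair them. The highest correlation of any WT with any IL-2-KO library was 0.66, for WT replicate 2 with IL-2-KO replicate 3. These are the libraries with other cells' transcripts, and whether they share a preparation was not tested. The limma fit was tested on simulated counts, drawn independently with a fixed spread and without transcripts of other cells, so libraries such as IL-2-KO replicate 3 were not imitated.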

Additional observations from a re-analysis of the deposited data

Results flagged for a closer look

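In 4 of 66 groups of 4 libraries, 1 library of an interferon gene stood farther from the rest than Dixon's 95% critical value for 4 samples allows. Chance gives about 1 such group in 20. Oas1a was at 7.82 in IL-2-KO replicate 3, against 2.08 to 3.01 in the other 3. Bst2 was at 48.0 in WT replicate 2, against 29.0 to 31.4, and Ifit3b was at 2.65 in the same library, against 1.72 to 1.86. Cmpk2 was at 3.35 in WT replicate 1, against 1.99 to 2.19. IL-2-KO replicate 3 and WT replicate 2 are the libraries with other cells' transcripts, whose part in these values was not tested.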

How the results depend on the processing

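Of the 29 genes that rose, 25 passed in those of the 8 fits leaving out 1 library that tested them. These 25 also passed under every other alternative that tested them, apart from the fits within 4 libraries. The other 4 were Isg20, Bst2, Ifi35 and Dtx3l. Rsad2, 1 of the 25, was not tested in the fits that leave out an IL-2-KO library, which tested 32 of the 33 genes. Leaving out 1 library gave 25 to 28 genes rising, with medians of 0.97 to 1.12. With the 4 libraries of under 2 M cells removed 18 rose, and with those of over 2 M removed 6 did, and fewer libraries were tested there. Array weights gave 30, including Irf9 (0.18 on the log2 scale, adjusted p = 0.0397). With a replicate block 27 rose, Ifi35 and Dtx3l losing their calls, although no pairing by number was seen. Over all genes, 1285 rose and 926 fell. Array weights gave 2240 and 2119, the block 911 and 486, the larger libraries 310 and 54, and the smaller 368 and 89. Leaving out 1 library gave 847 to 1249 and 437 to 935. The share higher among calls was 58.1%, and 51.6% with a median shift, 48.9% with quantile normalization and 51.4% with array weights. Of the further interferon-stimulated genes 28 rose, against 43 with array weights, 20 with the block, 8 and 7 in the larger and smaller libraries, and 22 to 31 leaving out 1. Signs near 0 turned: Ifi203 was 0.03 with quantile normalization, 0.02 with array weights, 0.09 in the larger cell-number libraries and -0.10 to 0.08 leaving out 1 library, Sp100 was 0.02 with array weights and -0.10 to 0.04 leaving out 1, and Ifi204 was 0.02 in the smaller cell-number libraries and -0.18 to 0.05 leaving out 1. The cause was not tested. A level of 1 CPM rests on 11.87 to 18.6 counts, which limits Rsad2 and Oas1a in WT.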

Other observations

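The HIN-200 genes beside Ifi203 and Ifi204, from the list of further interferon-stimulated genes and described here after their values were seen, split. Ifi209 rose from a mean of 101 ± 10.3 to 140.5 ± 11.5 (1.39-fold, limma adjusted p = 0.0052) and Ifi214 from 48.9 ± 7.60 to 83.7 ± 19.2 (1.69-fold, 0.00942). Ifi208 (149 ± 12.0 and 147 ± 15.4, limma adjusted p = 0.917), Mndal (619 ± 55.7 and 569 ± 30.1, 0.373) and the DNA sensor Aim2 (125 ± 4.24 and 139.9 ± 11.5, 0.162) did not pass, and neither did Ifi207, Ifi211 and Ifi213 (adjusted p = 0.769, 0.982 and 0.315). Relatives of Phf11b on the same list also differed: Phf11a rose 2.75-fold (limma adjusted p = 0.000632) and Phf11c 1.39-fold (0.0108), and Phf11d, at 5.55 ± 0.797 and 6.65 ± 1.89, did not pass (0.479).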
